A study of Homo sapiens with 5 samples.

Results

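The nuclear genes of the mitochondrial respiratory chain and of mitochondrial protein import were examined for RNA polymerase II (RNAPII) at their starts. Members were the listed transcription start sites (TSSs) whose gene symbol began with NDUF, UQCR, COX and a digit, ATP5, SDHA to SDHD, TIMM or TOMM, with 1 TSS kept per gene. This gave 37 of the 9767 genes with values in all 3 libraries, on 17 chromosomes. They were 7 accessory or carrier subunits and 2 assembly factors of complex I, the NDUFA4 paralogue NDUFA4L2, 3 complex II genes, 2 complex III genes, 10 subunits and 2 assembly factors of complex IV, 6 genes with an ATP synthase symbol, and 2 genes each of outer and inner membrane import. The cells were RPE1, an immortalised human retinal pigment epithelial line, and RNAPII was mapped by ChIP-seq of RPB1, its largest subunit. CFAP20-KO cells lacked CFAP20, a protein known from cilia that the series places in the coordination of transcription and replication. CFAP20/CCNC-dKO cells lacked CFAP20 and CCNC, which encodes cyclin C of the Mediator kinase module. WT cells carried neither knockout. All 3 groups were untreated and shared an inducible Cas9, and p53 and the puromycin resistance gene were knocked out in all, per the labels, which do not say whether a knockout line was 1 clone.

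Each genotype had 1 library with density around TSSs, so no difference between genotypes has a replicate check and no p-value is given. WT had 2 further libraries, with density around replication origins only. The labels name an RPB1 antibody from one supplier for WT and from another for both knockouts, while the protocol text names a single one, so in comparisons with WT the effects of genotype and of antibody cannot be told apart. The TSS table held no analysed TSS of CFAP20 or CCNC, and the knockouts could not be checked there. Coverage divided by the value and length of 1 fragment gave equivalent fragments: 846859 in CFAP20-KO, 1185105 in CFAP20/CCNC-dKO and 6766614 in WT over all TSS windows. The promoter window of a member, 200 bp before to 500 bp after the listed start, held a median of 15.9 fragments in CFAP20-KO, 21.1 in CFAP20/CCNC-dKO and 139 in WT. Single-gene ratios are therefore given with 95% Clopper-Pearson intervals, which cover counting error only. Of 10 retinal pigment epithelium markers, 6 were measured. By the mean of the 3 libraries 2, MITF and OTX2, exceeded the median promoter density of all TSSs (0.411), the density limit used throughout. RPE65, which defines the mature epithelium, stood at 0.108 in CFAP20-KO, 0.484 in CFAP20/CCNC-dKO and 0.418 in WT. COL1A1 and COL1A2, the 2 of 5 mesenchymal markers measured, exceeded the limit, and none of 4 epithelial markers was among the analysed TSSs. COL1A2 exceeded it through 1 library, with 0.271 in CFAP20-KO, 0.745 in CFAP20/CCNC-dKO and 0.338 in WT. Neither of the 2 measured blood cell markers exceeded the limit, while the 1 measured neuronal marker, SNAP25, did so through WT. SNAP25 stood at 1.05 in WT, at 0.150 in CFAP20-KO (1.95 fragments) and at 0.121 in CFAP20/CCNC-dKO (2.42 fragments). It lies in a chromosome segment whose flanking density was lower in both knockouts.

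The respiratory chain passes electrons through complexes I to IV of the inner mitochondrial membrane, and ATP synthase uses the resulting proton gradient. A few core subunits are encoded by mitochondrial DNA. All other subunits and the assembly factors are transcribed by RNAPII in the nucleus, and their proteins enter through the TOM complex of the outer and the TIM complexes of the inner membrane. Many of these nuclear genes are known to have CpG-rich promoters bound by the factors NRF1, GABPA (an ETS factor) and YY1.

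RefSeq promoters (GRCh38.p14, 250 bases before to 50 after the RefSeq start) were found for 32 of the 37 members and searched on both strands. For 5 of them, NDUFA5, COX7A2L, ATP5G2, SDHAF3 and ATP5F1, the RefSeq start lay over 500 bp from the listed start used for RNAPII. The NRF1 motif, GCGCNTGCG, was present in 13 of 32 member promoters (40.6%), against 7.47% of all 35116 promoters in the table and 11.9% of 3360 matched genes above the density limit. The ETS motif CCGGAAG was present in 7 member promoters (21.9%), against 10.3% of all promoters and 15.2% of genes above the limit. The YY1 motif AAGATGGC was present in 5 (15.6%), against 2.89% and 3.87%. In all, 18 members had at least 1 of these 3 motifs. GGGCGG (SP1) was present in 53.1% of member promoters, against 45.0% of all promoters and 61.6% of genes above the limit. CCAAT was present in 37.5%, against 34.6% and 37.4%. TATAAA was present in 1 member, COX7B (3.13%), against 11.5% and 7.47%. Median GC content was 59.2% in member promoters and 58.7% in all. NRF1 matches often overlap their own reverse complement and were then counted on each strand. A match describes letters in the window and no binding was measured.

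Promoters of 5 members are shown because their RNAPII values carry the comparisons that follow, with NRF1, ETS and YY1 matches in capitals. They were picked by those values, and a link between matches and RNAPII ratios was not tested. COX18 (chr4:73069667-73069966, minus strand) had the highest RNAPII density and has 3 NRF1 matches at 2 places. COX17 (chr3:119677357-119677656, minus strand) and NDUFB4 (chr3:120596086-120596385, plus strand) were lower in CFAP20/CCNC-dKO and have 3 and 4 NRF1 matches, COX17 with an ETS match after its start. COX4I1 (chr16:85799445-85799744, plus strand) was lower in CFAP20-KO and has a single ETS match, on the minus strand. SDHB (chr1:17053983-17054282, minus strand) was higher in CFAP20/CCNC-dKO and has an ETS match before and a YY1 match after its start.
COX18: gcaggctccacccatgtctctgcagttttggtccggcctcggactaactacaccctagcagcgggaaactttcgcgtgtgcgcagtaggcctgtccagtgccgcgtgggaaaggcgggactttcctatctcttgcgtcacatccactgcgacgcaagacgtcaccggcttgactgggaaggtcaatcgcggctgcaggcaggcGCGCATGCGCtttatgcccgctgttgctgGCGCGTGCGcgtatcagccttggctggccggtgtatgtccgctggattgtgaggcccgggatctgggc
COX17: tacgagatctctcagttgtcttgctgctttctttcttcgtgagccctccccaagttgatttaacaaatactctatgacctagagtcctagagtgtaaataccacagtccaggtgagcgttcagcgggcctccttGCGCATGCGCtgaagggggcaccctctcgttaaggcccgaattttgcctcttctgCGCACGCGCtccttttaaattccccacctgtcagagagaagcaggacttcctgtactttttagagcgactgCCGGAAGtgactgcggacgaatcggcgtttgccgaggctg
NDUFB4: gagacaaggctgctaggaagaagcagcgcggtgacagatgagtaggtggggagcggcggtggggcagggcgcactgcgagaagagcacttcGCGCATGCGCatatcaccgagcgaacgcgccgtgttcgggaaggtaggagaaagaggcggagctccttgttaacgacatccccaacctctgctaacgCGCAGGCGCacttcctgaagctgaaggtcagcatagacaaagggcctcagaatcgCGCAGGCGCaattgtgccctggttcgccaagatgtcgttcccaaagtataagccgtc
COX4I1: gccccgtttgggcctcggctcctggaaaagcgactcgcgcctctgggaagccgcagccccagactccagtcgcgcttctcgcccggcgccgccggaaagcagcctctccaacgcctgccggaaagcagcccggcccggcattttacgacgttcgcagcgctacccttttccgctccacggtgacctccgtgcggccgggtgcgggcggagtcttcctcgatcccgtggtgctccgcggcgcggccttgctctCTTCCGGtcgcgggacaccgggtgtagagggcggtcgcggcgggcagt
SDHB: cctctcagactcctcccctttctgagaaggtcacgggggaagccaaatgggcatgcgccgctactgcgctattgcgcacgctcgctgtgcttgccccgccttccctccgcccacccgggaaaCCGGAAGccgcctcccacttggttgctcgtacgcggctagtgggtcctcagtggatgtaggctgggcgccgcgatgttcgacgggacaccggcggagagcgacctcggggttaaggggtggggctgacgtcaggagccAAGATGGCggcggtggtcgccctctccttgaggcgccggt

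Member promoters carried more RNAPII than the median gene. Median promoter density, in spike-in-normalized coverage, was 1.22 over the members in CFAP20-KO, 1.06 in CFAP20/CCNC-dKO and 1.28 in WT. The same medians over all 9767 genes were 0.451, 0.428 and 0.408 in that order of libraries, and over the 4891 genes above the density limit 1.10, 0.828 and 1.07. Of the 37 members, 33 exceeded the limit. The other 4 were COX4I2, COX7A2L, COX7B2 and SDHAF3. Mean density over the members peaked 100 to 150 bp after the listed start in each library, at 1.71 in CFAP20-KO, 1.35 in CFAP20/CCNC-dKO and 1.83 in WT, as the plot of mean density by position shows.

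**Figure D1:**
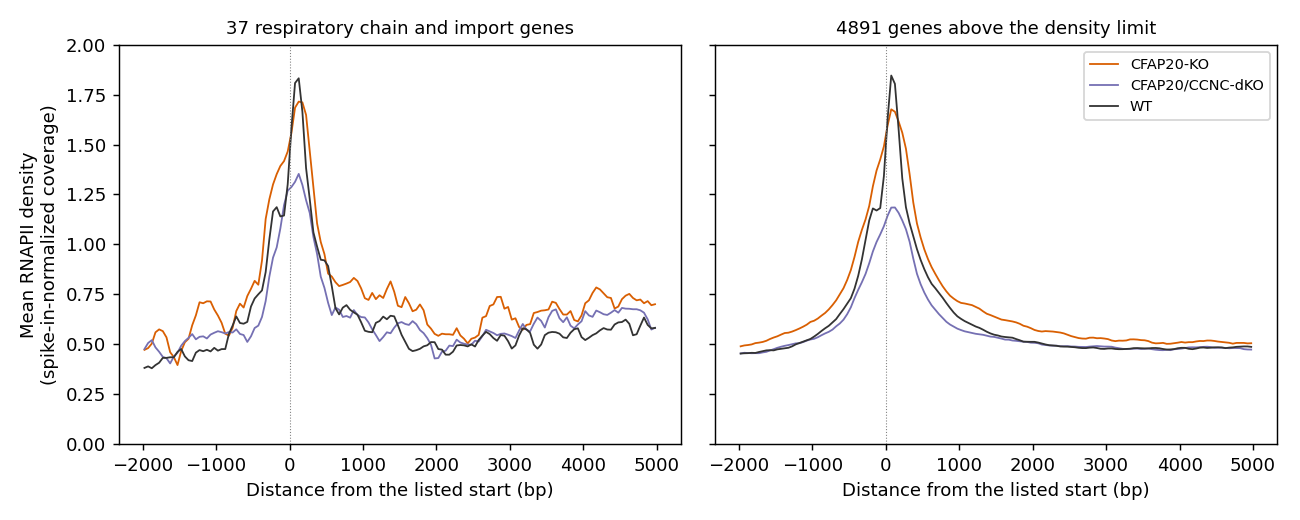
Mean RNAPII density (vertical axis, spike-in-normalized coverage in 50-bp bins) against distance from the listed start in bp, for the 37 respiratory chain and import genes (left) and the 4891 genes above the density limit (right). Lines are the CFAP20-KO, CFAP20/CCNC-dKO and WT libraries; the CFAP20/CCNC-dKO peak is the lowest in both panels, at 1.35 over the 37 genes and 1.19 over the 4891.

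Among complex I genes, NDUFV3 and NDUFA10, accessory subunits, had the highest WT promoter densities of the subunits. NDUFV3 had 1.87 in CFAP20-KO, 1.33 in CFAP20/CCNC-dKO and 2.10 in WT. NDUFA10 had 2.98, 1.13 and 1.86 in the same libraries. NDUFA5, another accessory subunit, was the lowest of the subunits in all 3 libraries, with 0.310 in CFAP20-KO, 0.274 in CFAP20/CCNC-dKO and 0.798 in WT. NDUFAF1, an assembly factor of the complex I membrane arm, exceeded all complex I subunits in WT, with 1.91, 1.47 and 2.31. NDUFA4L2, a paralogue of NDUFA4 known to be induced by hypoxia, had 2.21 in CFAP20-KO, 1.22 in CFAP20/CCNC-dKO and 1.14 in WT.

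Of complex II, SDHB, the iron-sulfur subunit, had 1.02 in CFAP20-KO, 1.64 in CFAP20/CCNC-dKO and 0.876 in WT. SDHAF4, an assembly factor of the flavoprotein subunit, had 2.19, 0.965 and 1.78 in those libraries. UQCRC1, a core subunit of complex III, had 1.34, 0.789 and 1.28, and UQCR10, a small subunit, 1.96, 1.10 and 1.34. SDHB alone of these 4 was highest in CFAP20/CCNC-dKO, and the other 3 were lowest there.

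Complex IV covered the widest range. COX18, needed to insert the mitochondrially encoded subunit COX2 into the inner membrane, had the highest density of all members in every library, 4.30 in CFAP20-KO, 3.60 in CFAP20/CCNC-dKO and 4.10 in WT. This placed it at the 98.8th, 99.4th and 99.1st percentile of all genes. COX17, a copper chaperone of complex IV, had 1.70, 0.643 and 1.47. COX4I1, the widely expressed isoform of subunit 4, had 1.05, 1.83 and 2.14. Its paralogue COX4I2, known from lung and from hypoxic cells, had 0.333, 0.385 and 0.105, the last from 11.4 fragments and below its WT flank of 0.332. The density of COX7B2, a testis-linked paralogue of COX7B, was 0.444, 0.321 and 0.425, and that of COX7B was 0.699, 0.505 and 0.568.

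ATP5G1 and ATP5G2 encode the same mature c subunit of the ATP synthase rotor. ATP5G1 had 2.90 in CFAP20-KO, 1.64 in CFAP20/CCNC-dKO and 1.42 in WT. ATP5O, which encodes the stalk subunit OSCP, was highest of this group in WT, with 1.52, 1.65 and 1.78. ATP5SL carries an ATP synthase-like symbol, and GENCODE names it DMAC2, a complex I assembly factor. It had 1.41, 1.73 and 1.43. Of the import genes, TOMM34, a cytosolic co-chaperone of precursor proteins, had 3.03, 1.36 and 1.86, and TOMM7, a small TOM subunit, 0.849, 1.06 and 1.26. TIMM50, the receptor of the TIM23 complex, had 1.97, 2.16 and 1.57, and TIMM17A, a channel subunit of TIM23, 2.08, 1.47 and 1.30. The plot of promoter density by gene shows that most intervals of the 3 libraries overlap within a gene.

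**Figure D2:**
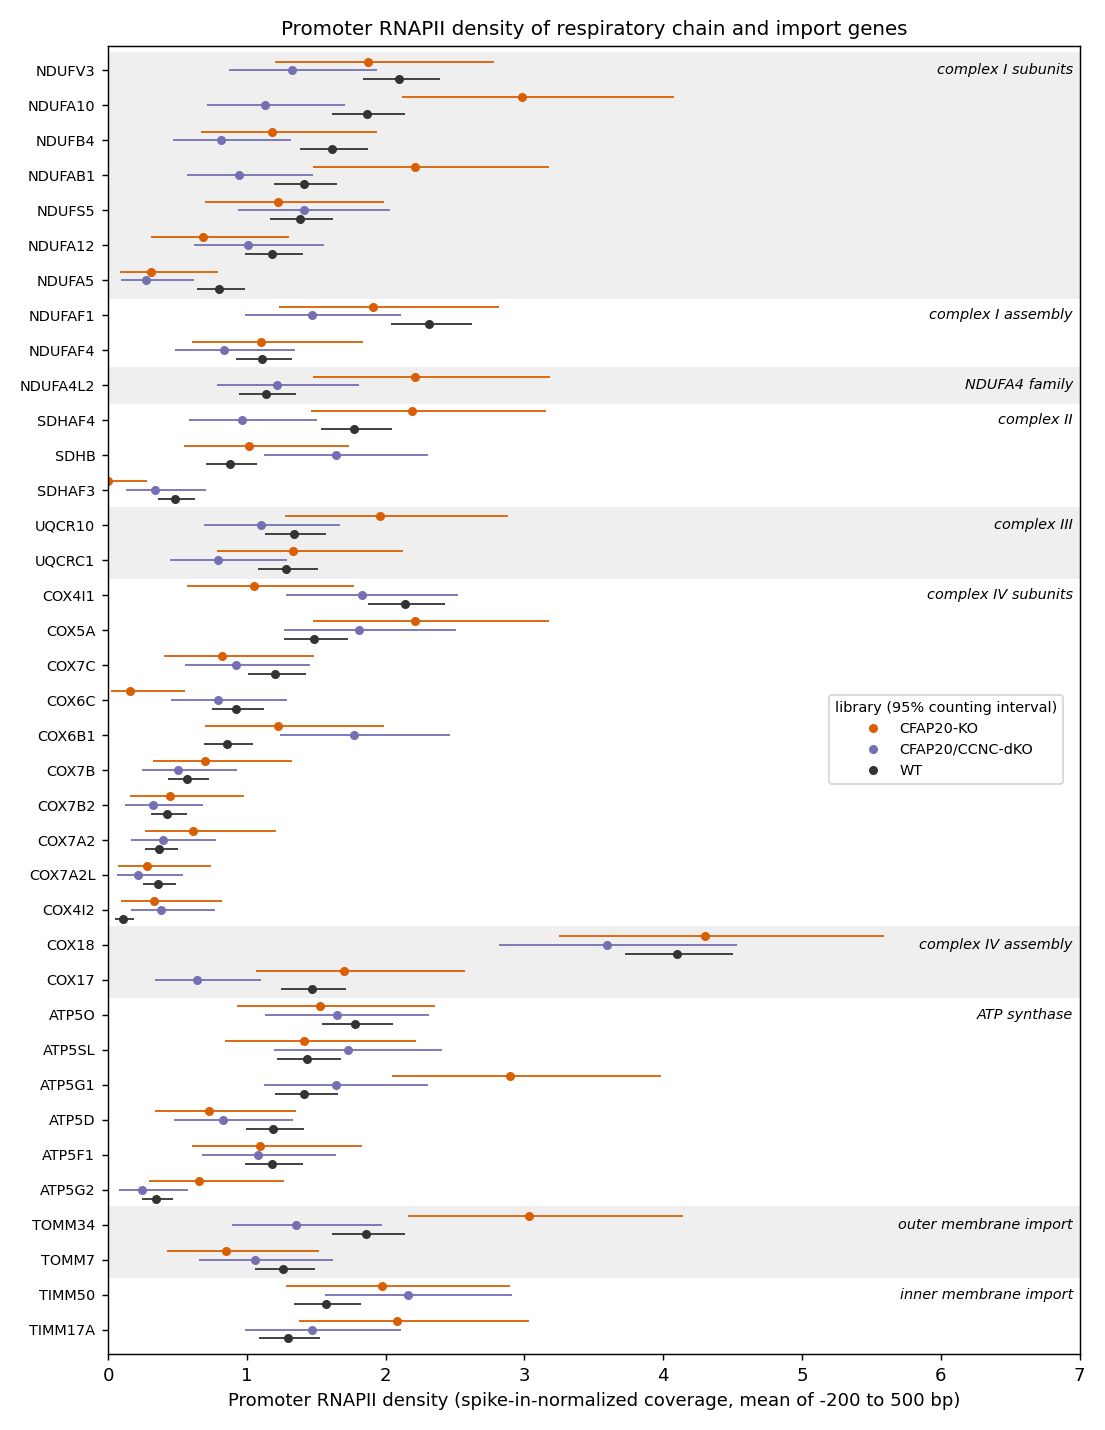
Promoter RNAPII density (horizontal axis, spike-in-normalized coverage) of the 37 genes by role, with CFAP20-KO above CFAP20/CCNC-dKO above WT in each row. Points are densities of 1 library and bars 95% counting intervals; COX18 stands above all other genes in every library, and COX6C and SDHAF3 are near 0 in CFAP20-KO.

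The listed start did not always mark the RNAPII peak. Of the members, 28 had a listed start within 50 bp of a GENCODE 44 start of the gene, and 6 had a canonical GENCODE start over 500 bp away. ATP5G2, whose canonical start lies 1325 bp downstream, had 0.655 in CFAP20-KO, 0.244 in CFAP20/CCNC-dKO and 0.342 in WT at the listed start. Around the canonical start it had 1.19, 1.21 and 1.72. SDHAF3, an assembly factor for the iron-sulfur subunit of complex II, is the clearest case. At its listed start the CFAP20-KO library held 0 fragments, against 6.71 in CFAP20/CCNC-dKO and 52.1 in WT. Around the canonical start 1108 bp downstream its density was 2.20 in CFAP20-KO, 0.806 in CFAP20/CCNC-dKO and 1.30 in WT, so that CFAP20-KO was 1.69 times WT (1.09 to 2.54). CFAP20-KO was thus the lowest library at the listed start and the highest around the canonical one. ATP5F1, NDUFA4L2, COX7A2 and COX7A2L were the other 4 with a distant canonical start. In addition, 7 members had a gene on the opposite strand starting within 1 kb of the canonical start, such as EMC8 at COX4I1 and ZMAT5 at UQCR10. Coverage carries no strand, so RNAPII of the neighbour cannot be told apart there.

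**Figure D3:**
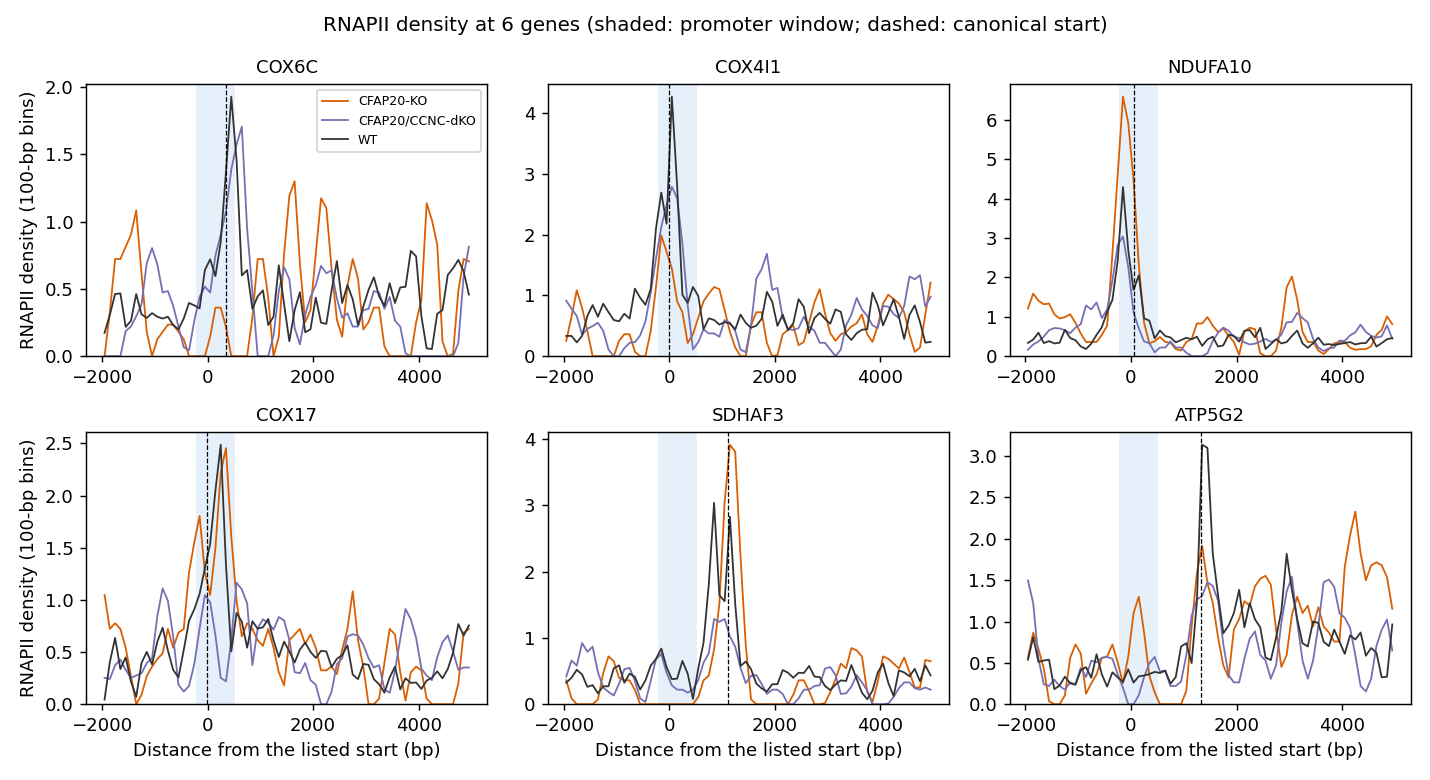
RNAPII density (vertical axis, spike-in-normalized coverage in 100-bp bins) against distance from the listed start in bp at 6 genes in the CFAP20-KO, CFAP20/CCNC-dKO and WT libraries, with the promoter window shaded and the canonical start dashed. At COX6C the CFAP20-KO line has no peak in the promoter window, at SDHAF3 the lines peak after the window, toward the canonical start at 1108 bp, and at ATP5G2 the WT line peaks near the canonical start at 1325 bp while both knockout lines are highest farther downstream.

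The first comparison asked whether loss of CFAP20 alters RNAPII at these genes. The members' median lay close to that of other genes. The median log2 promoter ratio of CFAP20-KO to WT was 0.06 over the members and 0.13 over genes above the limit, and the summed member density was 1.09 times WT (1.00 to 1.18), as it was over genes above the limit. Relative to the median of 0.13, 4 members were at least 1.5-fold higher, beside 15.8% of genes above the limit and 13.5% of all genes. Another 8 were at least 1.5-fold lower, beside 16.7% and 30.6%. Among 1242 genes whose WT promoter density lay between the quartiles of the members, 10.1% were higher and 20.1% lower. The 12 members past 1.5-fold in either direction were 32.4% of all members, against 32.5% of genes above the limit. The count of higher members was 9 in a promoter window of -50 to 300 bp and 2 with each TSS taken relative to its own flank, and the lower count was 5 in a window of -500 to 1000 bp.

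COX6C, a complex IV subunit (chromosome 8, listed start at 99894062, hg38), showed the lowest ratio of any member with fragments in both libraries. Its density was 0.155 in CFAP20-KO, from 2.01 fragments, 0.792 in CFAP20/CCNC-dKO and 0.923 in WT. CFAP20-KO was 0.168 times WT (0.0203 to 0.619), and 0.108 times (0.00744 to 0.476) around the canonical start. The gene body, 2000 to 5000 bp after the start, had 0.429 in CFAP20-KO and 0.453 in WT. The gene body values of the libraries were closer to each other than the promoter values. A gene on the opposite strand, ENSG00000287952, starts within 1 kb. COX4I1 (chromosome 16, 85799693) had 0.491 times the WT density (0.262 to 0.846), with 0.536 in the gene body in CFAP20-KO and 0.588 in WT. Promoter density was lower at both complex IV genes while their gene body values were close, and EMC8 starts within 1 kb of COX4I1.

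COX6C and COX4I1 are among the 9 members that lie within origin windows, where all 3 WT replicates have values. The density at the promoter divided by that of its flanks, 2000 to 4500 bp on both sides, compares libraries without regard to their scale. At COX6C it was 0.324 for CFAP20-KO and 2.57 for CFAP20/CCNC-dKO, against 2.72, 1.68 and 3.22 in WT replicates 1, 2 and 3 (2.54 ± 0.786, SD, n = 3). At COX4I1 it was 2.16 for CFAP20-KO and 3.70 for CFAP20/CCNC-dKO, against 4.42, 4.80 and 5.94 in the WT replicates (5.05 ± 0.791). The CFAP20-KO value was below the WT replicates at both genes, and the CFAP20/CCNC-dKO value lay within their range at COX6C and below it at COX4I1. The knockout values come from 10-bp and the WT replicate values from 200-bp bins, and the WT value from 10-bp bins at COX4I1, 4.13, was itself below the replicates. At the other members in origin windows, CFAP20-KO was also below the WT range at NDUFA12 (1.52) and above it at ATP5G1, TIMM17A (3.63) and COX18 (10.5), and it was within the range at NDUFS5, UQCR10 and ATP5G2. Lying outside the WT range is therefore not particular to the genes with the lowest or highest ratios, since COX18 had a ratio of 1.05 to WT. WT replicate 1 is also the library behind the ratios.

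The 4 higher members were ATP5G1, NDUFA4L2, ATP5G2 and COX4I2. ATP5G1 (chromosome 17, 48892765) was 2.05 times WT (1.40 to 2.94) and NDUFA4L2 (chromosome 12, 57240692) 1.95 times (1.25 to 2.94). The flanks of NDUFA4L2 were also denser in CFAP20-KO, with 1.35 against 0.867 in WT. Its promoter over flank density was 1.64 for CFAP20-KO and 1.31 for WT. At ATP5G1 the promoter over flank density was 3.90 for CFAP20-KO and 2.19 for CFAP20/CCNC-dKO, against 2.61, 2.12 and 3.25 in the WT replicates. CFAP20-KO was above the replicates here, as it was at TIMM17A and COX18, and CFAP20/CCNC-dKO was among them. TOMM34 was 1.63 times (1.13 to 2.30) and NDUFA10 1.60 times WT (1.10 to 2.26), both with intervals above the median ratio of genes above the limit. ATP5G2 had 1.91 times (0.794 to 4.10) and COX4I2 3.18 times (0.788 to 10.3), with intervals that include no difference. Around its canonical start ATP5G2 turned direction, to 0.692 times WT (0.384 to 1.16). Of the lower members, NDUFA12 and ATP5D, the delta subunit of ATP synthase, had 0.582 times (0.259 to 1.14) and 0.610 times (0.279 to 1.18), which likewise include it, and TOMM7 had 0.672 times (0.328 to 1.24) and COX7C 0.683 times (0.329 to 1.27). Intervals lay above the median ratio of genes above the limit at 4 members, beside 9.08% of those genes, and below it at 4, beside 8.24%. Those below were COX6C, COX4I1, NDUFA5 and SDHAF3, the last with the caveat of its start. NDUFA5 was 0.388 times WT (0.104 to 1.03), from 4.03 fragments in CFAP20-KO, which includes no difference. It lies in a segment whose flanks were lower in CFAP20-KO, with a log2 shift of -0.90.

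**Figure D4:**
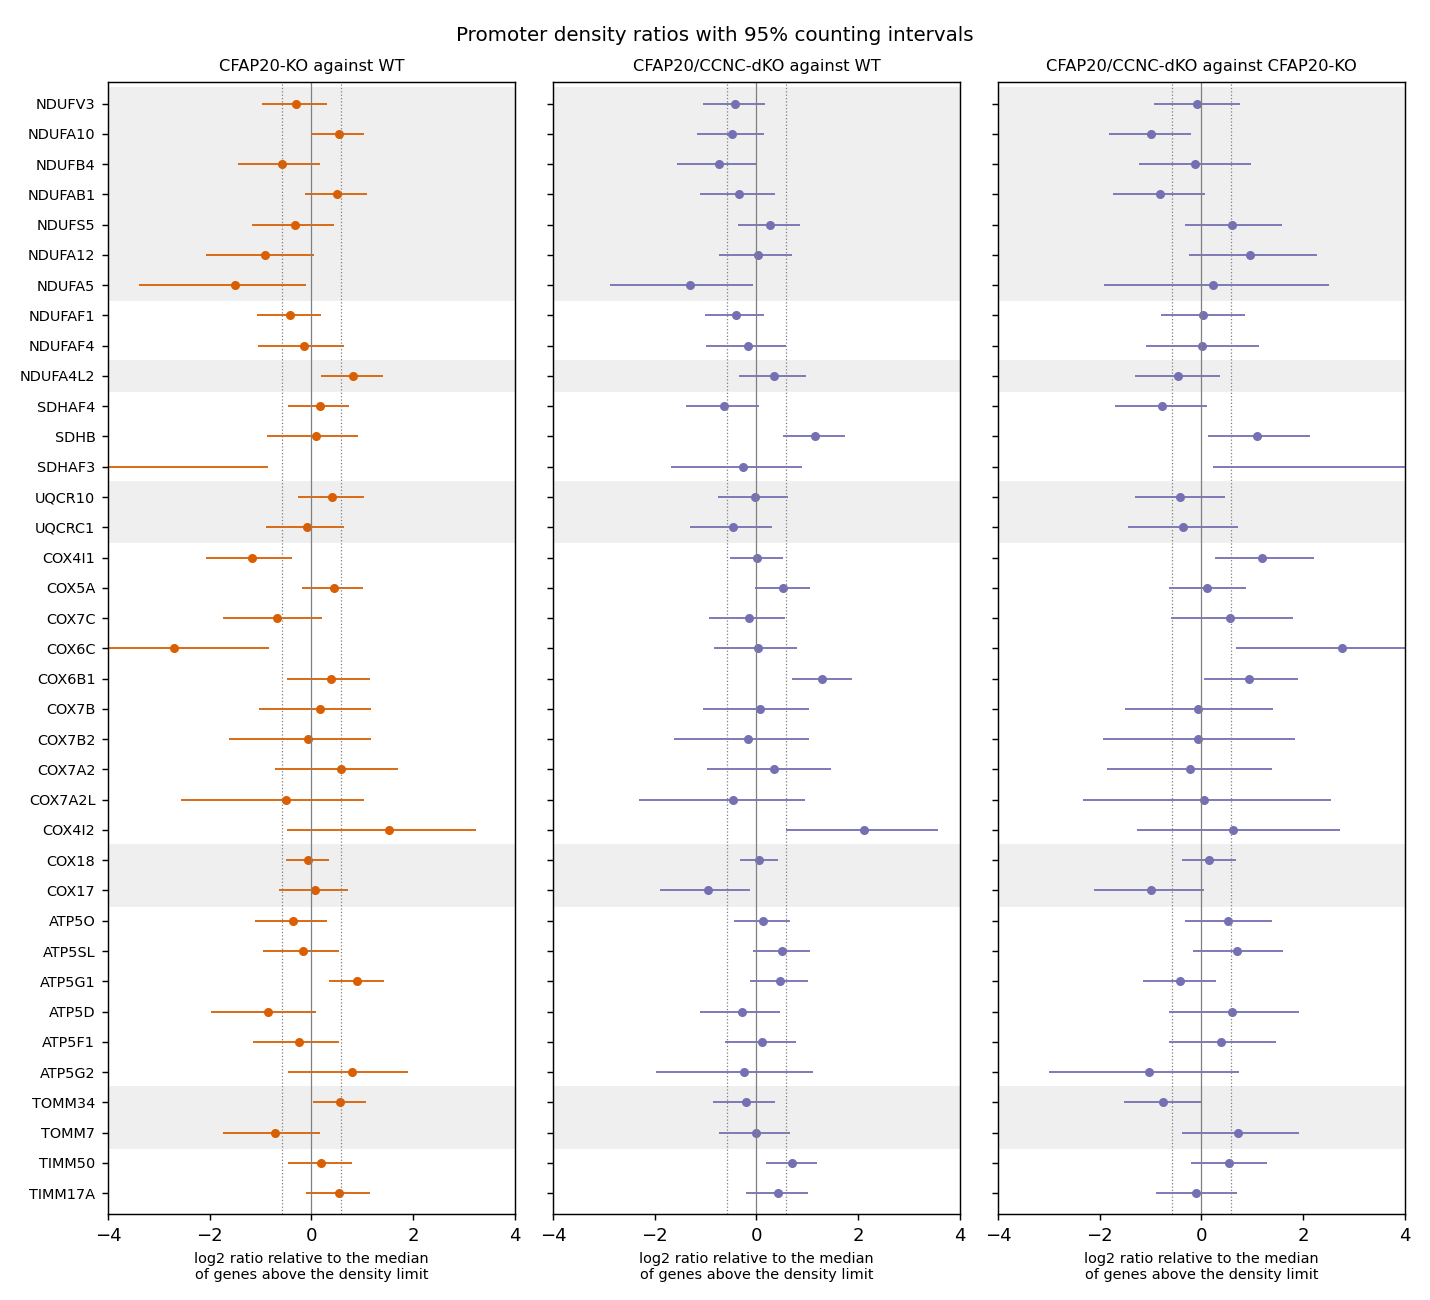
Log2 ratio of promoter density (horizontal axis), relative to the median of genes above the density limit, for CFAP20-KO against WT, CFAP20/CCNC-dKO against WT and CFAP20/CCNC-dKO against CFAP20-KO. Points are ratios of 2 libraries without a pseudocount, bars 95% counting intervals cut at the axis limits, dotted lines 1.5-fold and shading the role groups; SDHAF3 has no point where CFAP20-KO holds 0 fragments, and COX6C lies far left in the first panel and far right in the third.

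In CFAP20/CCNC-dKO against WT, the members' median likewise lay close to that of other genes. The median log2 promoter ratio was -0.24 over the members and -0.24 over genes above the limit. The summed member density was 0.869 times WT (0.806 to 0.935), against 0.797 times over genes above the limit. At least 1.5-fold higher relative to the median were 4 members, beside 18.9% of genes above the limit and 20.6% of all genes, and 4 were at least 1.5-fold lower, beside 16.7% and 19.7%. Past 1.5-fold in either direction were 21.6% of members and 35.6% of genes above the limit. Of the 1242 genes with WT densities like the members', 7.33% were higher and 20.9% lower. Intervals lay above the median ratio of genes above the limit at 4 members, beside 11.1% of those genes, and below it at 3, beside 12.1%. In the window of -50 to 300 bp 8 members were at least 1.5-fold higher and 7 lower. The lower members were NDUFA5, COX17, NDUFB4 and SDHAF4. NDUFA5 was 0.343 times WT (0.115 to 0.804), from 5.46 fragments in CFAP20/CCNC-dKO. COX17 (chromosome 3, 119677403) was 0.438 times WT (0.227 to 0.773). NDUFB4 (chromosome 3, 120596309), an accessory subunit of complex I, was 0.506 times (0.284 to 0.841), with 0.816 in CFAP20/CCNC-dKO and 1.61 in WT. SDHAF4 was 0.544 times WT (0.322 to 0.870).

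The higher members were COX4I2, COX6B1, SDHB and TIMM50. SDHB (chromosome 1, 17054170) was 1.87 times WT (1.22 to 2.81), and 1.46 times (0.911 to 2.27) around the canonical start 138 bp downstream. COX6B1, a complex IV subunit facing the intermembrane space, had 1.77 in CFAP20/CCNC-dKO and 0.854 in WT, which is 2.08 times (1.37 to 3.09). TIMM50 was 1.38 times WT (0.963 to 1.93), an interval that includes no difference. It passed 1.5-fold only relative to the median log2 ratio of -0.24, and its interval lay above that median. Around its canonical start, 426 bp downstream, TIMM50 was 1.08 times WT. COX6B1 and TIMM50 lie in a segment of chromosome 19 whose flanks were higher in both knockouts, by 0.55 and 0.64 on the log2 scale in CFAP20/CCNC-dKO. NDUFA5 lies in a segment of chromosome 7 whose flanks were lower, with a log2 shift of -0.91 for CFAP20/CCNC-dKO and -0.90 for CFAP20-KO. The part of these segments in the ratios of the 3 genes was not tested, but the promoter over flank density gives the local comparison. It was 2.11 in CFAP20/CCNC-dKO and 1.67 in WT at COX6B1, 2.51 and 2.92 at TIMM50, and 1.30 and 2.07 at NDUFA5. COX4I2 was 3.68 times WT (1.27 to 10.0), with a promoter density of 0.385 beside a flank of 0.446 in CFAP20/CCNC-dKO, and of 0.105 beside a flank of 0.332 in WT.

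Loss of CCNC on top of CFAP20 was addressed by CFAP20/CCNC-dKO against CFAP20-KO, which share the labelled antibody. This comparison reuses both libraries of the comparisons above. The median log2 promoter ratio was -0.30 over the members and -0.40 over genes above the limit, and summed member density was 0.798 times CFAP20-KO (0.720 to 0.884). Relative to the median, 10 members were at least 1.5-fold higher, beside 20.9% of genes above the limit and 34.1% of all genes, and 6 at least 1.5-fold lower, beside 17.7% and 17.4%. Of the 1242 genes with WT densities like the members', 17.3% were higher and 19.2% lower. Past 1.5-fold in either direction were 43.2% of members and 38.6% of genes above the limit. Intervals lay above the median ratio of genes above the limit at 5 members, beside 5.93% of those genes. These were COX6C, COX4I1, COX6B1, SDHB and SDHAF3. SDHAF3, also among the 10 higher members, held 0 fragments in CFAP20-KO at its listed start. Around its canonical start it was 0.366 times CFAP20-KO (0.186 to 0.697). In the window of -500 to 1000 bp 5 members were at least 1.5-fold higher. Among the 10 complex IV subunits, 4 were higher and 0 lower. The shares were 20.9% and 17.7% of genes above the limit, and 34.1% and 17.4% of all genes. The 4 were COX6C, COX4I1, COX6B1 and COX4I2. COX6B1, in the shifted segment, was 1.45 times CFAP20-KO (0.783 to 2.81) and COX4I2 1.16 times (0.314 to 4.99), both including no difference. COX6C had 0.792 for CFAP20/CCNC-dKO and 0.155 for CFAP20-KO, or 5.12 times (1.21 to 45.4). COX4I1 had 1.83 for CFAP20/CCNC-dKO and 1.05 for CFAP20-KO, or 1.74 times (0.912 to 3.51). This interval lay above the median ratio of genes above the limit but includes equality.

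The lower members included NDUFA10, with 1.13 for CFAP20/CCNC-dKO and 2.98 for CFAP20-KO, or 0.380 times (0.216 to 0.654), and TOMM34, with 0.447 times (0.264 to 0.748). Their intervals alone lay below the median ratio of genes above the limit, beside 6.67% of those genes. COX17 was 0.378 times (0.174 to 0.786), NDUFAB1, the mitochondrial acyl carrier protein, 0.427 times (0.226 to 0.791) and SDHAF4 0.441 times CFAP20-KO (0.234 to 0.814). These 5 genes were named for a low ratio, so a higher density in CFAP20-KO than in CFAP20/CCNC-dKO follows from the choice. WT lay between the 2 knockouts at each. The medians over genes above the limit had the same order, with 1.10 in CFAP20-KO, 1.07 in WT and 0.828 in CFAP20/CCNC-dKO. The remaining lower member, ATP5G2, was 0.372 times CFAP20-KO (0.0952 to 1.27), and 1.01 times (0.513 to 2.05) around its canonical start. SDHB had 1.64 for CFAP20/CCNC-dKO and 1.02 for CFAP20-KO, or 1.61 times (0.827 to 3.31), and NDUFA12 1.01 and 0.686, or 1.47 times (0.641 to 3.68).

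In gene bodies, taken from 2000 to 5000 bp in the 33 members of at least 5000 bp, median density was 0.566 in CFAP20-KO, 0.516 in CFAP20/CCNC-dKO and 0.457 in WT. The median log2 body ratio was 0.20 for CFAP20-KO and 0.12 for CFAP20/CCNC-dKO against WT, where genes above the limit had 0.08 and 0.04. The body ratio of CFAP20/CCNC-dKO to CFAP20-KO was -0.29 over the members and -0.05 over genes above the limit. The log2 promoter to body ratio differed from WT by a median of -0.13 for CFAP20-KO and -0.32 for CFAP20/CCNC-dKO, and over genes above the limit by 0.06 and -0.28. For CFAP20/CCNC-dKO against CFAP20-KO the median difference was 0.05 over the members and -0.33 over genes above the limit. COX18 was the most promoter-bound member, with a promoter to body ratio of 10.5 in CFAP20-KO, 11.5 in CFAP20/CCNC-dKO and 9.18 in WT. NDUFAF1 followed in WT, with 1.91, 2.19 and 4.74. Its body density was 0.997 in CFAP20-KO, 0.670 in CFAP20/CCNC-dKO and 0.488 in WT.

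Over the members, nascent transcription had a higher rank correlation with RNAPII in gene bodies than at promoters. The authors' WT BrU-seq value, which measures newly made RNA in the gene body on a scale not given, was listed for 36 members with a median of 6.59, and the median of genes above the limit was 1.22. Across genes, its Spearman correlation with WT promoter density was 0.13 over 36 members and 0.70 over 6299 genes. Of the 6299 genes 4343 exceeded the density limit, as most members did. The correlation over those genes alone was not computed, so the 2 values rest on unlike ranges of density. With WT gene body density it was 0.73 over 32 members and 0.62 over 5723 genes. Genes under 5000 bp were left out there but not at promoters, so the gene sets differ. Centring the promoter window on the canonical start left the member value at 0.14 (n = 34). The genes share 1 library and differ in length, and no p is given. The extremes show the low correlation at promoters. COX18, with the highest promoter density, had a BrU-seq value of 2.28, while UQCR10 had 142, ATP5G1 47.1 and COX7C, a small complex IV subunit, 46.6 at WT promoter densities of 1.34, 1.42 and 1.20. These 3 genes are shorter than 5000 bp and were not in the gene body correlation.

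**Figure D5:**
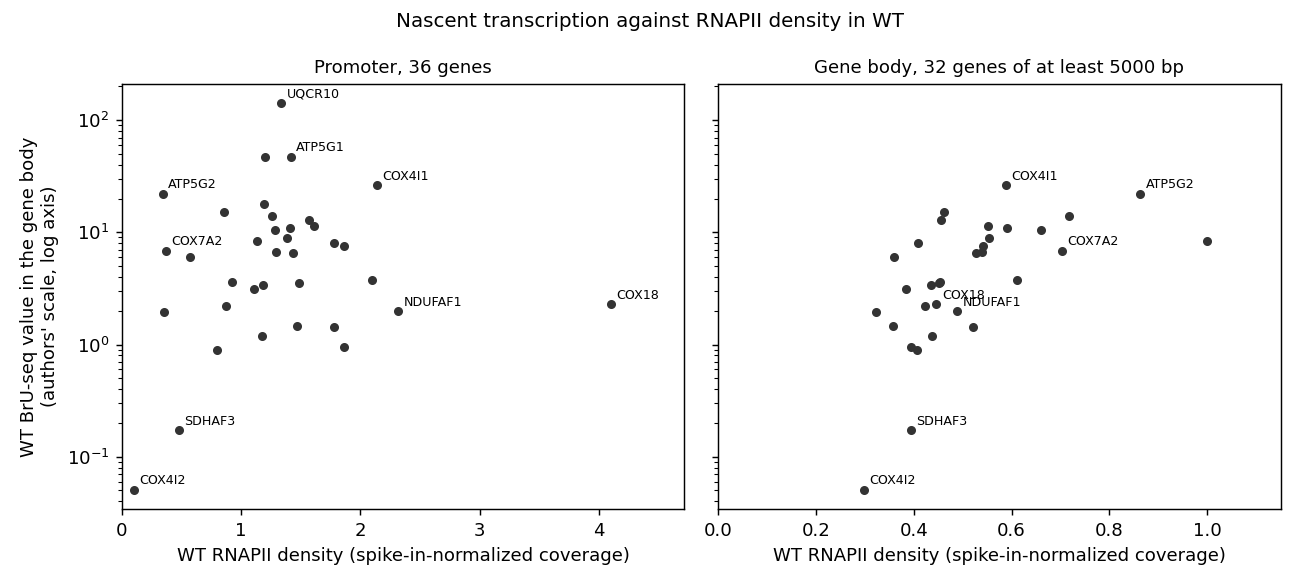
WT BrU-seq value in the gene body (vertical log axis, authors' scale) against WT RNAPII density (horizontal axis, spike-in-normalized coverage) at the promoter of 36 genes (left) and in the gene body of the 32 of them that are at least 5000 bp long (right). Each point is 1 gene in 1 library; the rank correlation is 0.13 on the left and 0.73 on the right.

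Other genes of the pathway were counted from a list of assembly, import and electron transfer genes outside the symbol rule. Of its 46 genes 9 were measured, all above the limit. Relative to the median, 2 were at least 1.5-fold higher and 1 lower in CFAP20-KO against WT. The shares of genes above the limit were 15.8% and 16.7%. In CFAP20/CCNC-dKO against WT 0 were higher and 2 lower, beside 18.9% and 16.7% of those genes. In CFAP20/CCNC-dKO against CFAP20-KO 0 were higher and 1 lower, beside 20.9% and 17.7%. CYCS, which encodes cytochrome c, the electron carrier between complexes III and IV, had 6.02 in CFAP20-KO, 2.92 in CFAP20/CCNC-dKO and 2.82 in WT. CFAP20-KO was 2.14 times WT (1.64 to 2.75), and CFAP20/CCNC-dKO 0.486 times CFAP20-KO (0.340 to 0.691). TACO1, a translational activator of a complex IV subunit, had 1.61, 1.18 and 2.34, so that CFAP20/CCNC-dKO was 0.504 times WT (0.315 to 0.769). Of 12 regulators 2 were measured, and neither was past 1.5-fold relative to the median in any of the 3 comparisons. TFAM, the mitochondrial transcription factor, had 2.71 in CFAP20-KO and 2.61 in WT, which is 1.04 times (0.711 to 1.48). Not taken relative to the median, CFAP20/CCNC-dKO was 0.576 times WT (0.382 to 0.841) and 0.554 times CFAP20-KO (0.329 to 0.928) at TFAM.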

How the data were processed

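RPB1 ChIP-seq was done on chromatin crosslinked with DSG and formaldehyde, with 28 µg of chromatin and 40 ng of Drosophila spike-in for WT and CFAP20-KO and 22 µg with 32.6 ng for CFAP20/CCNC-dKO, per the labels. The submitters' processing notes name the aligners BWA 0.7.17 and STAR 2.7.7a, the quality and trimming tools FastQC 0.11.9 and Trim Galore 0.6.5, then HOMER 4.8.2, SAMtools 1.11 and R 4.0.5, and the builds hg38 and BDGP6. The authors deposited coverage signal in 10-bp bins within 5 kb of each TSS for replicate 1 of each genotype, normalized to the spike-in per the file names, and in 200-bp bins within 100 kb of replication origins for 3 WT replicates, whose normalization is not given in the sources used here. The BrU-seq signal per gene is the authors' deposited WT value, without error. Per-sample values in 2 other columns stayed out of use.

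Of 9944 listed TSSs 9787 had values in all 3 libraries, and the TSS with the highest mean promoter density was kept per gene. Coverage fell on whole multiples of 1 value per library (0.181 in CFAP20-KO, 0.110 in CFAP20/CCNC-dKO and 0.0444 in WT), taken as 1 fragment of 298, 319 and 145 bp in the same libraries. Density times window width over these gave equivalent fragments. Medians and 1.5-fold counts used log2(density + 0.0407), relative to the median of the 4891 genes whose mean promoter density exceeded 0.411. Printed folds carry no pseudocount, and none was formed under 0.5 fragments. Values were computed with Python 3.11.15, numpy 2.4.6, pandas 2.3.3 and scipy 1.17.1, drawn with matplotlib 3.10.9, and the steps were tested on simulated data.

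The replicates are 1 library per genotype around TSSs, so no test across genes was possible. WT replicates are separate samples per the labels, and nothing says whether they came from separate cultures, so their spread may be technical. Named genes were those with the highest and lowest ratios or densities overall and per role, the SDH genes, the paralogue pairs, and genes in segments whose flanks were shifted by over 0.5 (log2). Some further members were named after their values were seen. Members and lists were chosen with earlier results of these data known. Windows, scaling, centring, pseudocount and left-out members or replicates were varied.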

Additional observations from a re-analysis of the deposited data

How the results depend on the processing

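Of 144 values computed under other settings, 132 stayed within the spread allowed and 12 moved, and the counts of members past 1.5-fold depended most on the window and the centring. For CFAP20-KO against WT, 4 members were higher; this count was 9 in a promoter window of -50 to 300 bp, 2 relative to each TSS's own flank, 9 without centring and 2 of 31 members without those whose canonical start is over 500 bp away, an alternative chosen after seeing the data. The 8 lower members were 5 in a window of -500 to 1000 bp. For CFAP20/CCNC-dKO against WT, the 4 higher members were 8 in the -50 to 300 bp window and 2 of 34 without members in shifted segments, and the 4 lower members were 7 in that window and 9 without centring. For CFAP20/CCNC-dKO against CFAP20-KO, the 10 higher members were 5 in the -500 to 1000 bp window and 4 without centring, and the 6 lower members were 10 without centring. The cause was not tested, except that dropping members or the centring changes a count by construction.

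The median log2 promoter ratio over 11 alternatives ranged between -0.16 and 0.23 for CFAP20-KO against WT, so its sign is not fixed, between -0.30 and -0.22 for CFAP20/CCNC-dKO against WT, and between -0.39 and -0.20 for CFAP20/CCNC-dKO against CFAP20-KO. The median promoter over flank density of the 9 members in WT origin windows was 2.77 and ranged between 2.54 and 3.06 when 1 replicate was left out. No paired analysis was possible because the genotypes share only replicate number 1. Depth limits single genes in the knockouts, with a median of 15.9 fragments for CFAP20-KO and 21.1 for CFAP20/CCNC-dKO. Some ratios past 1.5-fold had intervals that include no difference, such as NDUFA12 in CFAP20-KO, at 0.582 times WT (0.259 to 1.14). The smallest difference detectable at this depth was not computed.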
